A study of Mus musculus with 6 samples.

Results

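The neutrophil granule and identity genes were S100a8, S100a9, Ly6g, Csf3r, Mpo, Elane, Camp, Ltf, Ngp and Retnlg. They were found by gene symbol in the deposited expression table and made up 10 of its 54532 genes. The table held RNA sequencing of mouse T cells after co-culture with ID8, an established mouse ovarian cancer cell line. The T cells were taken from spleens of C57BL/6 mice aged 6 to 8 weeks with a kit that removes cells other than T cells, were kept with 10 ng/mL IL-2 and were activated for 72 h on beads carrying antibodies to CD3 and CD28. The groups are 3 libraries whose labels give 40 µM cisplatin, a platinum drug that crosslinks DNA (cisplatin libraries), and 3 whose labels give PBS (control libraries, named WT in the table). The labels attach the drug to the T-cell samples, whereas the study describes T cells placed with ID8 cells pretreated with cisplatin, so whether T cells met the drug directly cannot be told from these sources. The labels and the study's methods give no genetic change in either group. The co-culture was in vitro with a single tumour line, and the methods say that T cells were collected afterwards but name no sort away from the ID8 cells. They speak of biological replicates without saying whether the 3 libraries of a group came from separate mice or cultures, so the p-values measure the spread between these libraries only.

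Neutrophils are short-lived white blood cells that kill microbes with proteins stored in granules, and the granules are filled in a fixed order as the cell matures in the bone marrow. Primary granules, made by the promyelocyte, hold myeloperoxidase and serine proteases such as neutrophil elastase. Secondary and tertiary granules are filled later, with lactoferrin, cathelicidin and gelatinase, and the mature cell carries large amounts of S100a8 and S100a9 protein and the surface marker Ly6G. In blood and spleen most neutrophils are past the promyelocyte stage, and genes of the primary granule are then largely silent.

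Reads on these genes were few in every library. Values are FPKM, reads normalised for gene length and library size by the authors, and whole reads could be rebuilt from them, 30606569 to 32169496 on genes per library. Of these, the 10 genes together took 210, 234 and 302 reads in the cisplatin libraries and 32, 47 and 66 reads in the control libraries. Mpo, Elane and Csf3r held 85.7%, 96.6% and 89.7% of them in the cisplatin libraries and 71.9%, 74.5% and 65.2% in the control libraries. The other 7 genes together had 30, 8 and 31 reads with cisplatin and 9, 12 and 23 reads in the control. For 3 genes, Mpo, Elane and Csf3r, every cisplatin library lay above every control library. No gene lay the other way round, and 7 overlapped. Over the 33456 genes with any read, 17.7% lay with every cisplatin library above every control library. A count of 3 reads was taken as the floor, and Ly6g, Camp and Retnlg did not exceed it in any library. The floor, and the intervals given for read ratios, cover counting error only. Each library is a bulk sample, so fewer cells of a type and less RNA per cell cannot be told apart.

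**Figure D1:**
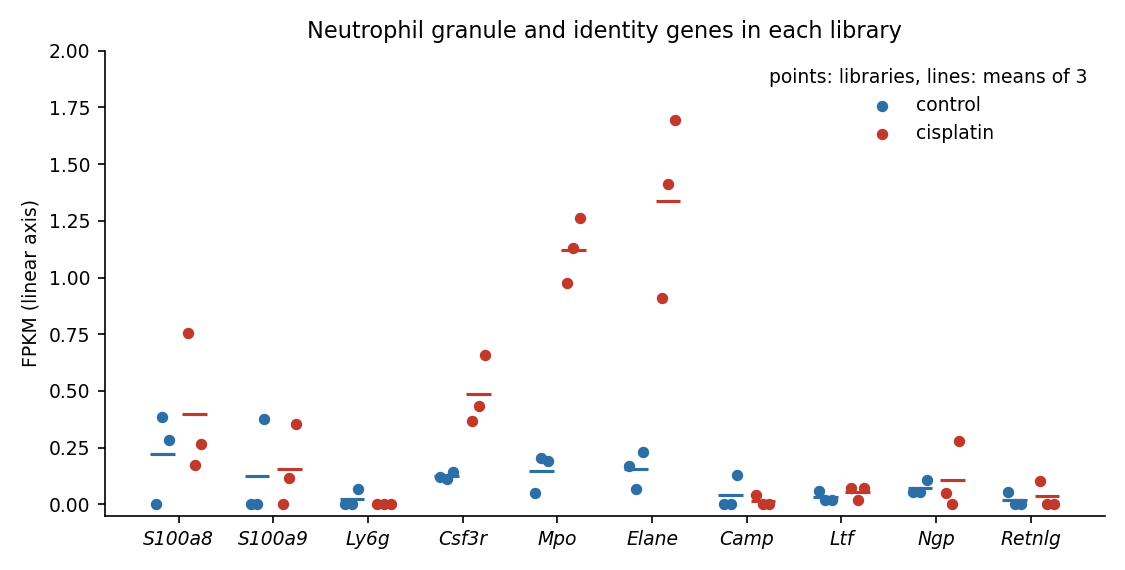
FPKM (linear axis) of the 10 neutrophil genes in each library, with control libraries in blue, cisplatin libraries in red, and lines at the means of 3 libraries. Elane and Mpo reached 0.911 to 1.69 FPKM with cisplatin, Csf3r stood apart from its control libraries at lower values, and the other 7 genes overlapped near 0.

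S100a8 and S100a9 encode the subunits of calprotectin, a calcium and zinc binding protein that is among the most abundant proteins of mature neutrophils. S100a8 (chromosome 3, 90668978 to 90670035, plus strand, GRCm38) had 17, 4 and 6 reads in the cisplatin libraries and 0, 8 and 6 reads in the control libraries, or 0.399 ± 0.313 and 0.222 ± 0.199 FPKM (SD, n = 3). The groups overlapped (two-sided exact permutation test, p = 0.6), and the ratio of read rates, cisplatin over control, was 1.79 with a 95% interval of 0.904 to 3.69. S100a9 (chromosome 3, 90692632 to 90695721, minus strand) had 0, 2 and 6 reads with cisplatin and 0, 0 and 6 reads in the control. Its groups overlapped too (exact permutation p = 1), with a read ratio of 1.24 and an interval of 0.376 to 4.32. A difference in either gene was not detectable at this depth. In cisplatin library 1, the library with most S100a8 reads, S100a9 had none, although the proteins work as a pair.

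Receptors for S100a8 and S100a9 were read far more deeply than their ligands. Tlr4, a receptor of bacterial lipopolysaccharide that also binds the pair, had 2.52 ± 0.115 FPKM with cisplatin and 13.8 ± 0.365 FPKM in the control (SD, n = 3). It fell by 2.41 on the log2 scale (limma, Benjamini-Hochberg adjusted p = 3.0e-07). Bsg, the cell surface protein basigin, fell by 2.54 (limma adjusted p = 5.9e-08). Ager, the receptor for advanced glycation end products, was higher by 0.82 (limma adjusted p = 0.0011), below the 2-fold threshold. With each library centred on T-cell markers, Ager was higher by 0.24 (limma adjusted p = 0.14). Of the 14 other S100 genes listed, 9 were tested, with a median log2 fold change of -0.42 against 0.03 over all tested genes, and 1 was called higher and 4 lower. The 4 that fell were S100a6, S100a7a, S100a11 and S100a16. S100a6, which lies 44797 bases from S100a8, had 44.3 FPKM on average with cisplatin and 150.1 FPKM in the control, and fell by 1.76 (standard error 0.06, limma adjusted p = 9.2e-07). S100a7a, which lies 10309 bases from S100a8, was itself low, at 0.259 ± 0.127 and 1.21 ± 0.0227 FPKM (SD, n = 3). S100g, the gene called higher, passed the filter on low values through its cisplatin libraries, with a control mean of 0.322 FPKM. S100a7a and S100a16 passed it through their control libraries, with cisplatin means of 0.259 and 0.486 FPKM. The marker genes of ID8 cells moved with these falls, 16 of 18 tested being called lower with cisplatin. Their part in the result was not tested.

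Ly6g encodes the antigen used to define mouse neutrophils by flow cytometry. It had 0 reads in every cisplatin library and 0, 0 and 2 reads in the control libraries. A level of up to 0.106 FPKM would be allowed by a count of 3 reads. Among its relatives of the Ly6 family on chromosome 15, Ly6h had at most 2 reads in a library and Ly6k at most 17, whereas others were abundant. Ly6c2, a marker of monocytes that lies 43270 bases away, had 32.5 ± 2.21 FPKM with cisplatin and 26.9 ± 0.580 FPKM in the control (SD, n = 3).

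Csf3r (chromosome 4, 126024550 to 126044440, plus strand) encodes the receptor of granulocyte colony-stimulating factor, the cytokine that drives neutrophil production. It had 43, 52 and 77 reads in the cisplatin libraries and 13, 12 and 16 reads in the control libraries. Every cisplatin library lay above every control library, and the lowest of the former held 43 reads against 16 in the highest of the latter. The means were 0.487 ± 0.152 and 0.125 ± 0.0174 FPKM (SD, n = 3), a ratio of read rates of 3.89 (95% interval 2.75 to 5.61), and the exact permutation test gave p = 0.1, the smallest that 3 against 3 allows. Csf3r did not enter the main test, which covered 15874 genes, those averaging 0.5 FPKM or more. With no such filter, Csf3r was higher by 1.36 on log2(FPKM + 0.1) (standard error 0.34, limma adjusted p = 0.026), in a fit that called 2.26% of 33456 genes higher. With limma's voom on the rebuilt reads it was higher by 1.97 (adjusted p = 7.2e-04), in a fit that called 6.08% of 18541 genes higher.

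The ligand of this receptor, Csf3, had 7, 10 and 16 reads with cisplatin and 4, 4 and 12 reads in the control, which overlapped (exact permutation p = 0.5). Of the 11 genes listed for signalling below the receptor, 11 were tested, 8 were higher and 2 lower at an adjusted p-value under 0.05 in limma, but 1 passed 2-fold. That gene was Ptpn6, the phosphatase SHP-1 of blood cells, which was higher by 1.04 (limma adjusted p = 7.3e-07). An adjusted p-value under 0.05 alone was reached by 8963 of the 15874 tested genes, so these counts say little by themselves. The median log2 fold change of the list was 0.31, and these genes are used by T cells as well. Centred on T-cell markers, 1 was higher and 7 were lower, so the direction of the list depended on the scaling.

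Mpo and Elane encode the enzymes of the primary granule and carried the clearest difference. Mpo encodes myeloperoxidase, which makes hypochlorous acid from hydrogen peroxide and chloride. It lies on chromosome 11 from 87793581 to 87804413, plus strand, and had 108, 128 and 140 reads in the cisplatin libraries and 5, 21 and 20 reads in the control libraries. These were 0.975, 1.13 and 1.26 FPKM with cisplatin and 0.0486, 0.205 and 0.190 FPKM in the control. The groups did not overlap, the lowest cisplatin library holding 108 reads and the highest control library 21. The ratio of read rates was 7.57 (95% interval 5.56 to 10.5). On log2(FPKM + 0.1) Mpo was higher by 2.36 (standard error 0.40, limma with Benjamini-Hochberg adjustment over all tested genes, adjusted p = 0.0023).

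Elane encodes neutrophil elastase, a serine protease that degrades bacterial and matrix proteins. It lies on chromosome 10 from 79886247 to 79888215, plus strand, and had 29, 46 and 54 reads in the cisplatin libraries and 5, 2 and 7 reads in the control libraries. In FPKM these were 0.911, 1.41 and 1.69 with cisplatin and 0.169, 0.0678 and 0.232 in the control, with no overlap. The ratio of read rates was 8.53 (95% interval 4.91 to 16.05), and the log2 fold change was 2.504 (standard error 0.40, limma adjusted p = 0.0018). Elane ranked 54 and Mpo 69 by log2 fold change among the 15874 tested genes, a set that both entered through their cisplatin libraries.

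Mpo and Elane were the only 2 of the 10 genes in the main test, and both were called higher, a call needing an adjusted p-value below 0.05 and a 2-fold difference. In that fit 4.11% of the tested genes were called higher and 12.8% lower. Both passed the filter on low values through their cisplatin libraries, their control means being 0.148 and 0.156 FPKM. The count of 2 and the ranks therefore say little beyond the values of each gene. Fold changes on the log2(FPKM + 0.1) scale understate the change of genes this low. With a pseudocount of 1 FPKM the log2 fold change of Mpo was 0.89 and under the 2-fold threshold, and that of Elane was 1.004 and barely over it. Centring each library on T-cell markers moved the median of all tested genes from 0.03 to -0.56, and Mpo and Elane were then higher by 1.78 and 1.92, or by 2.34 and 2.48 relative to that median. The split of all calls moved with the scaling, from 653 higher and 2034 lower to 137 higher and 3796 lower when centred on T-cell markers, and to 979 higher and 1790 lower after quantile normalization.

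In order of level per length, Elane, Mpo and Csf3r came first in the cisplatin libraries with means of 1.34, 1.12 and 0.487 FPKM. The ranges of Elane and Mpo overlapped, those of Mpo and Csf3r did not, and from Csf3r down to Camp each gene's range overlapped that of the next. In the control libraries S100a8, Elane, Mpo and Csf3r followed each other at 0.222, 0.156, 0.148 and 0.125 FPKM, and each gene of the order overlapped the next. For scale, the median of the tested genes was 5.69 FPKM, above the highest value of any of the 10 genes in any library.

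The DNA just before the RefSeq transcription start is shown for the 3 genes whose groups stood apart, Mpo, Elane and Csf3r, to set these promoters side by side. The sequences are the 250 bases upstream of the RefSeq start on the plus strand (GRCm38.p6), at chr11:87793534-87793783, chr10:79886062-79886311 and chr4:126024409-126024658. The gene starts of the expression table lie upstream of these RefSeq starts, so that the last 203 bases of the Mpo window, 65 of the Elane window and 109 of the Csf3r window lie inside the gene by the table's annotation. Capitals mark GAGGAA, a core letter string of sites for the ETS factor PU.1, which is needed for myeloid development.
Mpo: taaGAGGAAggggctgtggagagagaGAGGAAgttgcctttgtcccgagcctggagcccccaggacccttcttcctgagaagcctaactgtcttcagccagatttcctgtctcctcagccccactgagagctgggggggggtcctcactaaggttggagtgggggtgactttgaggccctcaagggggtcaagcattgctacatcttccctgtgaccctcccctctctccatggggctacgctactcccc
Elane: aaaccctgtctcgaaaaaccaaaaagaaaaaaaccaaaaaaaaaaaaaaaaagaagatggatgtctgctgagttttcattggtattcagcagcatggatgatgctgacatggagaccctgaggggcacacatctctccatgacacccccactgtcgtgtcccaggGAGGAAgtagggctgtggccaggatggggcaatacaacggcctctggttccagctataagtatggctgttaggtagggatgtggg
Csf3r: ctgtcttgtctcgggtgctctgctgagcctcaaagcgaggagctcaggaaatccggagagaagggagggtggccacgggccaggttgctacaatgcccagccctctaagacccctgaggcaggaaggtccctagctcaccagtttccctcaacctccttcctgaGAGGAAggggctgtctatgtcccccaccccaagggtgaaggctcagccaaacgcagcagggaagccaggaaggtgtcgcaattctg
GAGGAA stood 247 and 224 bases before the start of Mpo, 85 bases before that of Elane and 86 bases before that of Csf3r, each on the coding strand, and the Csf3r match lies inside the gene by the table's annotation. Searched on both strands, GAGGAA occurred upstream of 6 of the 10 genes and in 23.3% of 32841 RefSeq promoter windows of this length. Besides the 3 genes shown, these were S100a8, Ly6g and Ltf, whose groups overlapped. A gene was counted if any of its windows matched, and Ly6g had a further window without the C/EBP letters given next. The letters TTGCNNAA, taken from sites of C/EBP factors, occurred upstream of 5 of the 10 genes (S100a9, Ly6g, Ltf, Ngp and Retnlg) and in 9.57% of all windows, and were found in none of the 3 windows shown. TGTGGT, from sites of RUNX factors, occurred upstream of S100a9 among the 10 genes and in 14% of all windows. The letter strings do not overlap each other in the windows shown, and a match describes the sequence and not a bound site.

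Of the 5 other genes of the primary granule list found in the table, 3 also had every cisplatin library above every control library, 1 had the reverse order and 1 had no read. Prtn3, which encodes proteinase 3 and lies 3073 bases from Elane, had 117, 109 and 90 reads in the cisplatin libraries and 18, 24 and 21 reads in the control libraries. It was higher by 1.97 (standard error 0.20, limma adjusted p = 2.0e-04). Ctsg, encoding cathepsin G, had 87, 91 and 94 reads with cisplatin and 6, 28 and 5 reads in the control. It was higher by 2.72 (standard error 0.51, limma adjusted p = 0.0038), and control library 2 held most of its control reads. Ms4a3, a membrane protein of granulocyte and monocyte precursors, had 27, 15 and 28 reads with cisplatin and 0, 2 and 5 in the control. It was below the filter, with a read ratio of 9.26 (95% interval 4.27 to 23.9). Prtn3 and Ctsg, like Mpo and Elane, passed the filter on low values through their cisplatin libraries, their control means being 0.401 and 0.418 FPKM.

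Prss57, a serine protease of the same granule, went the other way at low counts, with 0, 2 and 0 reads with cisplatin and 4, 8 and 3 reads in the control. Bpi, whose protein binds bacterial lipopolysaccharide, had no read in any library. Neither was tested. Together the 7 primary granule genes, Mpo and Elane included, took 368, 391 and 406 reads in the cisplatin libraries and 38, 85 and 61 reads in the control libraries.

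**Figure D2:**
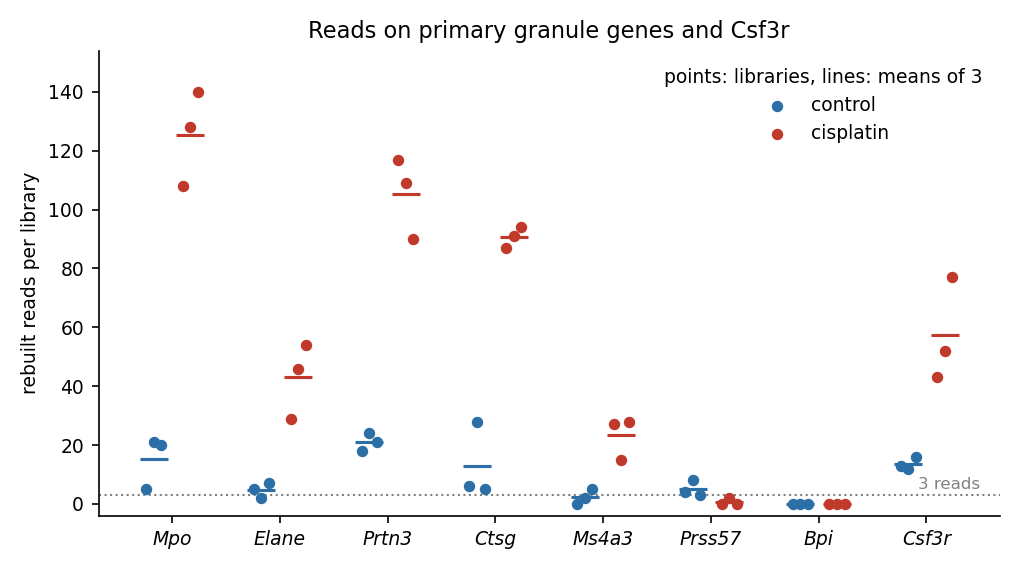
Rebuilt reads per library on 7 primary granule genes and Csf3r, with control libraries in blue, cisplatin libraries in red, lines at the means of 3 libraries and a dotted line at 3 reads. The 3 cisplatin libraries lay above the 3 control libraries for each gene but Prss57, which was reversed, and Bpi, which had no read, with Mpo between 108 and 140 reads against 5 to 21.

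Apart from Prtn3, the neighbours of Mpo and Elane on the chromosome were low in reads or changed by less than 2-fold. Lpo, the peroxidase gene 2015 bases from Mpo, had at most 2 reads in a library, and Epx, the peroxidase gene of eosinophils, had no read in the cisplatin libraries and at most 2 in a control library. Between Elane and its neighbours, Cfd, 2638 bases away and encoding complement factor D, had at most 7 reads, and Med16, 6493 bases away, was higher by 0.26 (limma adjusted p = 0.015), below 2-fold. Supt4a, 49958 bases from Mpo, and Arid3a, 38828 bases from Elane, were higher by 0.73 and 0.47 (limma adjusted p = 2.0e-06 and 2.1e-04), below 2-fold. Kiss1r, 28756 bases from Elane, was lower by 0.35 (limma adjusted p = 0.36). Of the 9 protein-coding genes within 50 kb of Elane, only Prtn3 was called, and Cfd and Gm26602 were not tested. The antisense gene Gm11505, which overlaps Mpo, had no read.

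The members of the later granules stayed at or near the floor in both groups. Ltf encodes lactoferrin, the iron-binding protein that marks secondary granules, and had 8, 2 and 8 reads with cisplatin and 6, 2 and 2 reads in the control. Its groups overlapped (exact permutation p = 0.4), with a read ratio of 1.67 and a 95% interval of 0.730 to 4.04. Ngp, neutrophilic granule protein, had 2, 0 and 11 reads with cisplatin and 2, 2 and 4 reads in the control (exact permutation p = 1, read ratio 1.51, interval 0.578 to 4.19). Camp encodes the antimicrobial peptide cathelicidin and had 1, 0 and 0 reads with cisplatin and 0, 0 and 3 in the control. A difference was not detectable at this depth in any of these 3 genes.

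Retnlg encodes resistin-like gamma, a secreted protein of mature mouse neutrophils. It had 2, 0 and 0 reads with cisplatin and 1, 0 and 0 reads in the control, and a count of 3 reads would allow up to 0.169 FPKM. Its relatives Retnla and Retnlb had no read in any library.

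Of 11 further genes listed for the secondary and tertiary granules, 6 were tested, of which 1 was called higher and 2 lower, at a median log2 fold change of -0.34. The 2 that fell were Lcn2 and Hp, which encode lipocalin 2 and haptoglobin and are also made by epithelial cells. Lcn2 had 1.37, 1.62 and 1.41 FPKM with cisplatin and 7.90, 6.82 and 6.88 FPKM in the control, and fell by 2.22 (standard error 0.10, limma adjusted p = 4.4e-06). Hp had 1.46, 1.77 and 1.67 FPKM with cisplatin and 8.34, 7.19 and 7.97 FPKM in the control, and fell by 2.20 (limma adjusted p = 4.2e-06). These falls went with the fall of the ID8 markers, and that part was not tested. Mmp25, a membrane-anchored metalloproteinase, was higher by 1.57 (limma adjusted p = 6.8e-05), or by 0.98 when centred on T-cell markers. Mmp8, neutrophil collagenase, had 131, 167 and 128 reads with cisplatin and 160, 124 and 156 reads in the control, which overlapped (limma adjusted p = 0.43). Chil3, which encodes the lectin Ym1 of neutrophils and macrophages, was below the filter with 41, 27 and 24 reads with cisplatin and 4, 6 and 5 reads in the control. Cd177 had 2, 0 and 0 reads with cisplatin against 4, 8 and 18 in the control, and Olfm4 had no read in any library.

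Among 18 genes listed for the surface and late stages of neutrophils, 7 were tested, 4 were called higher and none lower, at a median log2 fold change of 1.05. Fpr2, a receptor for formylated peptides, had 172, 223 and 121 reads with cisplatin and 67, 28 and 19 reads in the control and was higher by 2.09 (limma adjusted p = 0.0062). Acod1, the enzyme that makes itaconate, was higher by 2.06 (limma adjusted p = 7.1e-06), Wfdc17 by 2.27 (limma adjusted p = 0.011) and Clec4d, a lectin receptor, by 1.05 (limma adjusted p = 1.3e-05). All 4 are also known from macrophages and monocytes. Centred on T-cell markers, 3 of them stayed called and Clec4d was higher by 0.46.

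The other genes of this list ranged from no read to a mean of 2.18 FPKM, that of Clec4e with cisplatin. Clec4e had 1.25 FPKM on average in the control and was higher by 0.76 (limma adjusted p = 0.0018), below 2-fold. Centred on T-cell markers, it was higher by 0.18 (limma adjusted p = 0.25). Cxcr1, a receptor for neutrophil chemokines, had 50, 45 and 87 reads with cisplatin and 56, 46 and 50 reads in the control, which overlapped (limma adjusted p = 0.80). Cxcr2, the chemokine receptor that guides neutrophils out of the marrow, had 0 reads in 5 libraries and 6 reads in control library 1. The stefin genes Stfa2, Stfa2l1 and BC100530 had no read in any library. Padi4, which citrullinates histones in neutrophils, had 14, 16 and 19 reads with cisplatin and 51, 19 and 40 reads in the control, and its groups touched at 19 reads while in FPKM the control libraries lay higher.

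**Figure D3:**
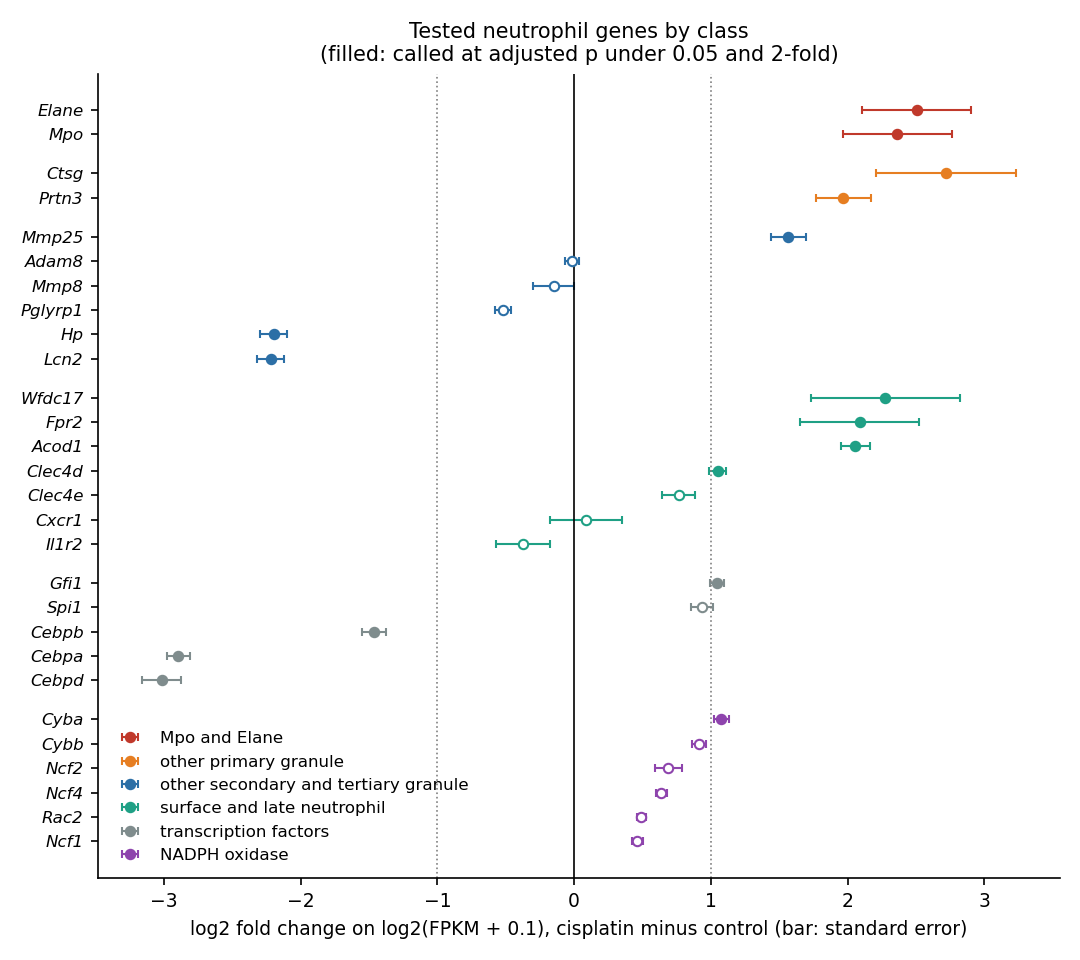
Log2 fold changes on log2(FPKM + 0.1), cisplatin minus control, with standard errors, for the genes of 6 neutrophil classes that entered the test, filled where called at an adjusted p-value under 0.05 and 2-fold (dotted lines). The 4 tested primary granule genes, all of which passed the filter through their cisplatin libraries, lay between 1.97 and 2.72, and the 6 tested genes of later granules ran from -2.22 to 1.57.

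The transcription factors that act in the granule programme did not move in one direction. Of 6 listed, 5 were tested, 1 was called higher and 3 lower, at a median log2 fold change of -1.46. Cebpa, needed to form granulocyte precursors, had 1.89 ± 0.140 FPKM with cisplatin and 14.7 ± 1.13 FPKM in the control (SD, n = 3), and fell by 2.89 (limma adjusted p = 6.1e-07). Cebpb fell by 1.46 (limma adjusted p = 1.4e-05) and Cebpd by 3.02 (limma adjusted p = 5.5e-06). The falls of these 3 genes went with the fall of the ID8 markers, 16 of 18 tested being called lower. The part of ID8 cells in these falls was not tested. Cebpe, which is required for secondary granules, had 10, 8 and 0 reads with cisplatin and 0, 6 and 12 reads in the control. Gfi1, a repressor used by neutrophil precursors and by T cells, was higher by 1.04 (limma adjusted p = 5.5e-06). Spi1, which encodes PU.1, was higher by 0.94 (limma adjusted p = 9.7e-05), below 2-fold. Centred on T-cell markers, Gfi1 was higher by 0.46 and Spi1 by 0.35.

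The oxidase that supplies peroxide to myeloperoxidase was listed with 6 genes. All 6 were tested and passed an adjusted p-value of 0.05 with higher values in limma, and Cyba alone passed 2-fold, by 1.08 on the log2 scale (limma adjusted p = 7.0e-06). That p-value alone was passed by 8963 of the 15874 tested genes, in either direction. The median of the list was 0.66. B cells, macrophages and T cells also use some of these genes. Centred on T-cell markers, 2 were higher and 2 lower. Of the 2 listed inhibitors of granule proteases, Slpi was lower by 0.79 (limma adjusted p = 0.0028), below 2-fold, and Serpinb1a did not pass the threshold (0.06, limma adjusted p = 0.56).

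Markers of other cell types were read in the libraries labelled T cells, and their levels differed between the groups. The 22 T-cell markers were all above the floor and summed to 3115 to 3179 FPKM with cisplatin and 1964 to 2084 FPKM in the control, and limma put 22 of 22 higher at an adjusted p-value below 0.05, none past 2-fold. Over the 15874 tested genes, 8963 passed that p-value in either direction. The 10 B-cell markers, all above the floor, summed to 3609.5 to 3685 and 1686 to 1775 FPKM, of which Ighm, the constant region of IgM, held 3220 and 1433 FPKM on average. Their median log2 fold change was 0.46, and Fcer2a fell by 1.06 (limma adjusted p = 0.0042). That median moved to -0.13 when centred on T-cell markers, where 3 of the 10 were higher and 4 lower at an adjusted p-value under 0.05 in limma. The 24 ID8 markers, all above the floor, summed to 246 to 254 FPKM with cisplatin and 1674 to 1761 FPKM in the control. The levels of the markers of both cell types of the co-culture therefore differed between the groups, in opposite directions.

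The summed levels of macrophage, monocyte and dendritic cell markers were higher with cisplatin in the deposited FPKM, though single genes differed. Which cells the reads of these lists came from, T cells included, was not tested. The 14 macrophage markers were all above the floor and summed to 155 to 176 FPKM with cisplatin and 72.5 to 79.6 FPKM in the control, with 8 of 10 tested called higher, or 4 when centred on T-cell markers. Cd68, a lysosomal protein of macrophages, did not pass the threshold (0.0041, limma adjusted p = 0.97). C1qb, a complement chain made by macrophages, had 6.28 ± 0.557 FPKM with cisplatin and 0.863 ± 0.229 FPKM in the control (SD, n = 3). The 7 monocyte markers summed to 405 to 423 and 242 to 247 FPKM, with none called higher. F13a1, a coagulation factor subunit among them, fell by 1.34 on the log2 scale (limma adjusted p = 7.5e-04). Centred on T-cell markers, the median of the 6 tested monocyte markers moved from 0.76 to 0.18. At an adjusted p-value under 0.05 in limma, 3 were then higher and 2 lower. The 8 markers of basophils and mast cells, cells that also store proteases, summed to 34.8 to 39.8 and 20.9 to 25.8 FPKM, with Cpa3 and Fcer1a called higher, at log2 fold changes of 1.499 and 1.34, but at 0.91 and 0.75 and below 2-fold when centred on T-cell markers. Their summed reads overlapped, at 2643 to 2935 with cisplatin and 2603 to 2940 in the control. Kit, of the same list, had a log2 fold change of -0.72 (limma adjusted p = 8.6e-05), below 2-fold. When centred on T-cell markers it was called lower, at -1.304. The 7 dendritic cell markers summed to 248 to 250.4 and 169 to 186 FPKM, with Zbtb46 called lower. Centred on T-cell markers, the median of the 4 tested dendritic cell markers moved from 0.51 to -0.08. At an adjusted p-value under 0.05 in limma, none was then higher and 1 was lower. The 6 NK cell markers summed to 18.6 to 20.6 and 12.4 to 14.4 FPKM, while the 8 erythroid and platelet markers were lower with cisplatin, at 76.9 to 89.3 against 92.9 to 117 FPKM. The median of the 5 tested NK cell markers moved from 0.64 to 0.05 when centred on T-cell markers. That of the 6 tested erythroid and platelet markers moved from -0.36 to -0.95. The 7 eosinophil markers, of which 5 were above the floor, overlapped between the groups at 2.56 to 3.72 and 2.44 to 3.38 FPKM. The 10 neutrophil genes summed to 3.28 to 4.58 FPKM with cisplatin and 0.506 to 1.55 FPKM in the control. The part of these other cells in the values of Mpo, Elane and Csf3r was not tested.

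**Figure D4:**
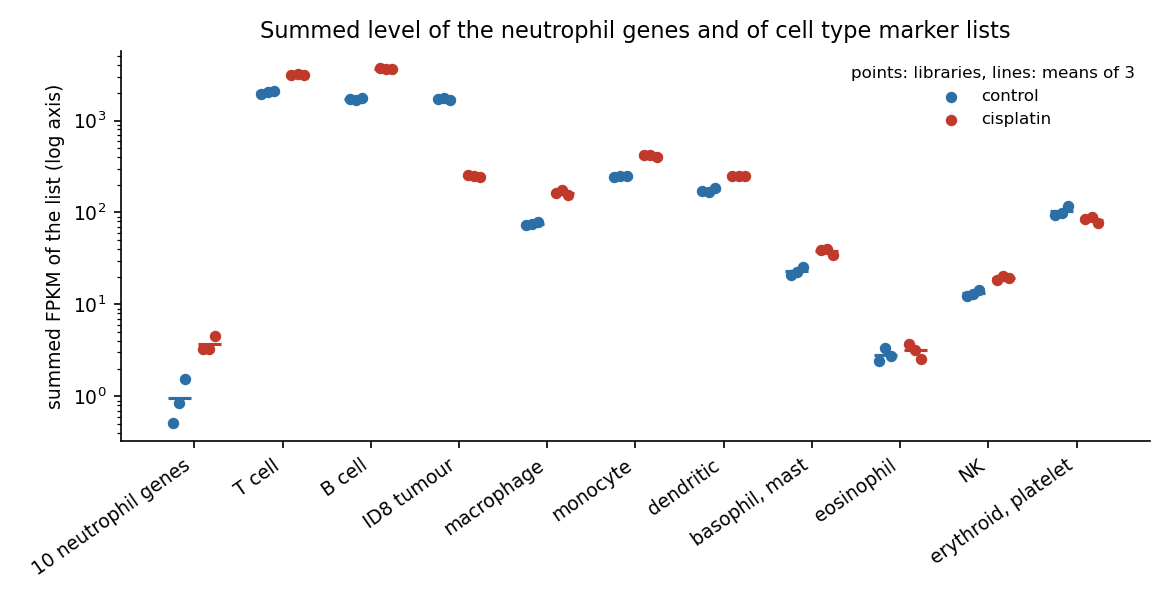
Summed FPKM (log axis) of the 10 neutrophil genes and of 10 cell type marker lists in each library, with control libraries in blue, cisplatin libraries in red and lines at the means of 3 libraries. The ID8 list was lower with cisplatin, at 246 to 254 against 1674 to 1761 FPKM, as was the erythroid and platelet list, the eosinophil list overlapped, and the other 8 sums were higher with cisplatin.

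Signals that recruit or raise neutrophils were listed with 9 genes, of which 5 were tested. Csf2, the cytokine GM-CSF, had 31, 43 and 36 reads with cisplatin and 9, 18 and 16 reads in the control and was higher by 1.15 (limma adjusted p = 0.011). Cxcl3, a chemokine for Cxcr2, was higher by 1.45 (limma adjusted p = 0.0029). Its control mean was 0.371 FPKM, so it passed the filter on low values through its cisplatin libraries. Neither Csf2 nor Cxcl3 passed 2-fold when centred on T-cell markers, at 0.57 and 0.86. The other listed chemokines for Cxcr2 overlapped between the groups, Cxcl2 at 0.12 (limma adjusted p = 0.80), Cxcl5 at 0.68 (limma adjusted p = 0.18) and Cxcl1, below the filter, with 22 to 32 reads in every library. Csf1, the macrophage growth factor, fell by 1.20 (limma adjusted p = 4.9e-06). Il17a, a T-cell cytokine that raises neutrophil numbers, had 8, 13 and 24 reads with cisplatin and 2, 10 and 0 reads in the control, which overlapped (exact permutation p = 0.2).

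The genes whose log2(FPKM + 0.1) was most like that of Elane, the member with the highest mean level, were C230085N15Rik, Usp16, Xcl1, Fam107b and Nxpe4, with Pearson correlations of 0.997 to 0.999 over the 6 libraries. They were picked as the highest of all tested genes, and the 6 points share the difference between the groups. Xcl1, a chemokine of activated T and NK cells, had 6.18 FPKM on average with cisplatin and 1.66 FPKM in the control. None of the other 9 neutrophil genes was among them.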

How the data were processed

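The authors removed adaptor and low-quality reads, aligned the rest and deposited gene values in FPKM, reads normalised for gene length and library size. The submitters' processing notes list fastp, HISAT2 2.0.5, featureCounts 1.5.0-p3 and mm10, whereas the study's methods name LifeScope for alignment and counting. The setting for strand is not given in the sources used here. The study's methods tested raw counts and called genes at adjusted p under 0.05 and 2-fold. Since the deposited unit is FPKM, the 3 cisplatin and 3 control libraries were compared here with limma 3.58.1 (R 4.3.3; lmFit, eBayes with trend) on log2(FPKM + 0.1) for 15874 genes averaging 0.5 FPKM or more, with Benjamini-Hochberg adjustment over all of them and the study's thresholds. FPKM multiplied by gene length gave whole multiples of 1 step per library, from which reads were rebuilt, and 100% of values above 0 lay within 0.1 of a whole number. Ratios of read rates used the denominators behind the deposited FPKM, with exact binomial intervals at 95%. These denominators averaged 1.04 times the reads on genes for cisplatin and 0.980 times for the control. Single genes were also compared by two-sided exact permutation of the 6 libraries. No replicates held identical values (chi-square per degree of freedom 5.11 to 5.99). The fit was tested on simulated data.

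Gene coordinates of the table matched GENCODE M21 (GRCm38) for 53499 of 54409 genes. Promoter windows came from RefSeq (GRCm38.p6), which held all 10 genes. The 10 genes and 22 gene lists (222 symbols, 221 matched) were chosen with earlier results of these data known. Named genes are the 10, any gene of the lists and the 5 tested genes most correlated with the member of highest mean FPKM. Genes within 50 kb or overlapping were named besides, after their values were seen. Alternatives were other pseudocounts, filters, scalings, variance models and thresholds, limma's voom on rebuilt reads with at least 10 reads in at least 3 libraries, a block for the replicate number, and each replicate left out in turn. Tables were read with python 3.11.15, pandas 2.3.3, numpy 2.4.6 and scipy 1.17.1, and figures drawn with matplotlib 3.10.9.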

Additional observations from a re-analysis of the deposited data

How the results depend on the processing

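The depth limits what can be said of the 8 genes outside the main test, which had at most 77 reads in a library. The count of called genes among the 10 was 2, and was 1 with a pseudocount of 1 FPKM, where Mpo had a log2 fold change of 0.89, and 0 with a minimum mean of 5 FPKM, a filter that none of the 10 genes passes. It was 3 with no filter, with a minimum mean of 0.1 FPKM and with limma's voom, Csf3r being the third. Over all genes the count was 2687, and was 1762 with a pseudocount of 1 FPKM, 1145 with a minimum mean of 5 FPKM and 8963 at an adjusted p-value under 0.05 without a fold minimum. Leaving out 1 replicate at a time gave 2577 to 2722 called genes, always 2 of the 10, a log2 fold change of Elane of 2.23 to 2.74 and of Mpo of 2.03 to 2.55. The lowest value for Mpo was without control replicate 1, which held 5 of its reads. Elane was called in each of its 19 alternatives and Mpo in 18 of 19. With a pseudocount of 1 FPKM, Elane was barely over the 2-fold threshold, at 1.004. Some of the 19 changed only the thresholds and kept the values of the main fit. The other 8 genes entered only alternatives with a lower or no filter, or for Csf3r limma's voom, and no other scaling, block or left-out replicate was run for them.

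With the replicate number as a block, limma called 2662 genes, and Elane and Mpo had adjusted p-values of 0.0069 and 0.0074. For libraries that share a number, correlations of their deviations were 0.023, -0.063 and -0.021 over 15874 genes. Pairs with different numbers gave values of like size, from -0.061 to 0.083. What a shared number stands for is not stated, and these values cannot tell whether such libraries have a common origin. The block lowered the count of calls from 2687 to 2662.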
